A study of Mus musculus with 32 samples.

Results

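Six2, Six3, Six4, Six5 and Six6 are 5 mouse genes of the Six-family of homeobox genes, and their RNA was followed through the first 6 days of retinal organoid culture. They were picked by symbol, with earlier results of these data known, and they are 5 of the 55492 rows of the deposited table. Polyadenylated RNA was sequenced from embryonic stem cells (day 0) and from organoids grown out of them (days 2, 4 and 6). Each of 4 kinds of culture was sampled at each day with 2 libraries, giving 16 groups and 32 libraries. WT is the stem cell line Rx:GFP, and the table holds a row for a green fluorescent reporter. KO is labelled as Mettl3 KO, where METTL3 is the enzyme subunit that places the N6-methyladenosine mark on RNA. The other cultures are KO cells given wild-type METTL3 fused to GRBD, a domain named in the labels, here called the fusion line. It was grown without dexamethasone (no Dex), where the labels place the fusion protein in the cytosol, or with 10 µM dexamethasone (Dex), a synthetic glucocorticoid, where they place it in the nucleus. All 4 cultures are labelled with 0.1 µM AGN at days 2, 4 and 6, and day 0 carries no AGN label. Day 0 Dex samples are labelled as treated although the protocol lists Dex for 2, 4 and 6 days. No sample is labelled as receiving Dex without the fusion, so effects of Dex itself and of the moved fusion protein cannot be told apart. The labels do not say how many clones the KO and fusion lines stand for.

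Proteins of this family are transcription factors with a homeodomain, which binds DNA, and a SIX-type domain beside it, which binds partner proteins. With Eya proteins they act as activators, and with Groucho (Tle) or Dachshund (Dach) proteins as repressors. Six3 and Six6 form a subfamily known from the forebrain and eye, where Six3 is needed for the anterior neural plate and the eye field, and Six6 for growth of the retina and pituitary. Six2 keeps nephron progenitors of the kidney undifferentiated, Six4 acts in muscle and sensory placodes, and Six5 lies beside the myotonic dystrophy gene Dmpk.

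In GENCODE M21 positions on GRCm38, 4 of the 5 genes lie in pairs. Six3 (ENSMUSG00000038805, chromosome 17, 85613608 to 85629302, plus strand) and Six2 (ENSMUSG00000024134, chromosome 17, 85684277 to 85688274, minus strand) are 55.0 kb apart and point at each other. Six6 (ENSMUSG00000021099, chromosome 12, 72939892 to 72944899, plus strand) and Six4 (ENSMUSG00000034460, chromosome 12, 73099609 to 73113456, minus strand) do the same across 154.7 kb. Six5 (ENSMUSG00000040841, chromosome 7, 19094594 to 19098549, plus strand) starts 773 bp after the end of Dmpk on the same strand. Six3os1, a non-coding RNA gene on the minus strand, overlaps the annotated span of Six3 by 4791 bp. 4930447C04Rik, a protein-coding gene on the minus strand, overlaps the start of Six6 by 883 bp. Whether reads were counted by strand was not given in the sources used here, so reads in those overlaps cannot be told apart.

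Six3 and Six6 had the largest differences between cultures, so the 250 bases before the RefSeq start of each (GRCm38.p6, plus strand) are shown 5′ to 3′. Capitals mark CCAAT or its reverse complement ATTGG, and TGACAG or its reverse complement CTGTCA, motifs picked after the sequences had been seen. The Six3 window is chr17:85620584-85620833 and lies within the GENCODE span of Six3. The Six6 window is chr12:72939632-72939881 and lies within the span of 4930447C04Rik.
Six3: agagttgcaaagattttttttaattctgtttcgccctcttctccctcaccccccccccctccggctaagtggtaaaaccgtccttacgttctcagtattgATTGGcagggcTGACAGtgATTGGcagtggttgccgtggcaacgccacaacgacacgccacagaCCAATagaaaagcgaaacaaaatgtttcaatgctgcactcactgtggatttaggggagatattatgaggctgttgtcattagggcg
Six6: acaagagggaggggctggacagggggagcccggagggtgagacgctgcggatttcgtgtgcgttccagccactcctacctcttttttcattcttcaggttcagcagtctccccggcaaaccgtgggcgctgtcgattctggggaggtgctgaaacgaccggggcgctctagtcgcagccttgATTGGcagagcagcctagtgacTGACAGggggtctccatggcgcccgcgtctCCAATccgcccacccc
Counted on both strands, CCAAT occurred 3 times before Six3, 2 times before Six6, 1 time before Six2 and 0 times before Six5. Of 32851 RefSeq windows of this length, 33.8% held at least 1 CCAAT, 10.1% at least 2 and 2.79% at least 3. TGACAG occurred 1 time before each of Six3, Six5 and Six6 and 2 times before Six2, where 15.9% of windows held at least 1 and 1.64% at least 2. Six4 has 2 RefSeq windows, both without TGACAG, and CCAAT was in 1 of them. The motif TAATTA, a core bound by many homeodomains, was in none of these windows and in 4.84% of all. The longest run shared by the Six3 and Six6 windows was TTGATTGGCAG, which begins 153 and 71 bases before their starts and holds a CCAAT match in each. In the transcripts, GGACT, a common form of the motif that METTL3 methylates, occurred 1 time in 3680 nt of Six3, 2 times in 4009 nt of Six6, 3 times in 6817 nt of Six4, 3 times in 2119 nt of Six2 and 6 times in 3007 nt of Six5. Per kb, Six3 held 0.27, Six4 0.44, Six6 0.50, Six2 1.42 and Six5 2.0, beside a median of 1.01 over 21866 coding genes. A match describes letters and is no measure of a bound or methylated site.

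Levels are FPKM, fragments scaled by transcript length and library size, so that genes can be set beside each other. Estimated depth was 27.95 M to 53.75 M fragments per library (M, mega), and 3 fragments on Six6 corresponded to 0.015 to 0.029 FPKM, limits that cover counting error only. Duplicates correlated across genes at r of 0.9922 to 0.9955. Mettl3 RNA was no lower in KO: it was 36.33 and 35.11 FPKM in WT and 37.86 and 37.32 FPKM in KO at day 6, and KO means the libraries so labelled. Genes of chromosome 8 shifted in KO against WT relative to all other genes, by a median of 0.05, 0.16, 0.28 and 0.40 log2 at days 0, 2, 4 and 6 (858 genes, singled out after their values were seen). The 5 genes lie on chromosomes 7, 12 and 17, and the part of that shift in their differences was not tested. In bulk RNA, fewer cells of a type and less RNA per cell cannot be told apart. Differences are limma log2 changes on log2(FPKM + 1), which understates the change of genes near 0. They are given ± SE and counted as called where the p-value, adjusted by Benjamini-Hochberg over 16276 tested genes, was under 0.05. All 5 genes passed the filter on low values (1 FPKM in at least 2 libraries). Six2 did so through day 4 alone, Six6 through day 6 in WT and Dex alone, and Six3 through days 4 and 6. Calls for these genes at those days thus rest on the values that let them pass. Whether duplicates were separate cultures is not stated, so p-values speak for the spread between these libraries. Each SE rests on the spread of duplicates pooled over all 16 groups and does not measure that of the groups compared. For Six3 and Six6 many of those groups lie near 0, where log2(FPKM + 1) narrows the spread.

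**Figure D1:**
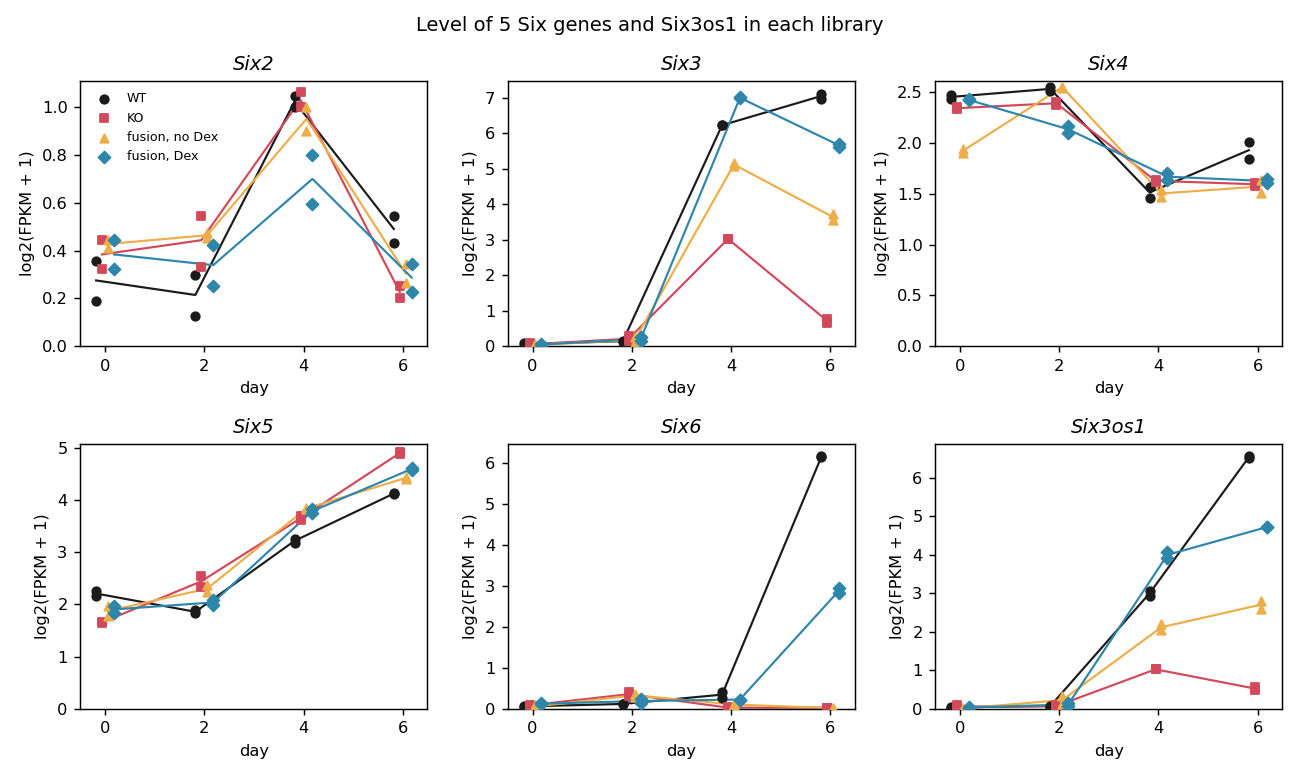
Levels of the 5 Six-family genes and Six3os1 as log2(FPKM + 1), by day. Points are the 32 libraries, shifted sideways by culture, lines join group means, and vertical scales differ between panels. Six3 is near 0 until day 2 in all 4 cultures, Six6 passes 1 FPKM at day 6 in WT and Dex alone, and Six5 ends above its day 0 level in every culture.

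Six3 appeared between days 2 and 4 in every culture, then rose further in WT and fell in the others. At days 0 and 2 its 16 libraries held 0.01 to 0.21 FPKM. At day 4 Six3 was 73.79 and 74.3 FPKM in WT, 7.08 and 7.18 FPKM in KO, 34.55 and 33.07 FPKM in no Dex, and 128.39 and 126.31 FPKM in Dex. The 4 cultures did not overlap, and Dex was highest. At day 6 it was 138.2 and 125.53 FPKM in WT, 0.69 and 0.58 FPKM in KO, 10.67 and 12.19 FPKM in no Dex, and 48.36 and 50.91 FPKM in Dex. The cultures were again separate, with WT now highest. Ordered by level, WT at day 6 and Dex at day 4 overlapped at the top, and the 6 groups below them were each apart from their neighbours. From day 4 to day 6 Six3 changed by 0.82 ± 0.07 in WT (adjusted p = 3.38e-09), -2.31 ± 0.07 in KO (adjusted p = 4.35e-16), -1.49 ± 0.07 in no Dex (adjusted p = 3.54e-13) and -1.34 ± 0.07 in Dex (adjusted p = 2.16e-12). In FPKM, day 4 was 11.2-fold above day 6 in KO, 2.96-fold in no Dex and 2.57-fold in Dex.

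Between cultures, Six3 in KO against WT was -3.21 ± 0.07 at day 4 (adjusted p = 1.24e-17) and -6.34 ± 0.07 at day 6 (adjusted p = 9.1e-23). KO held 9.63% of the WT level at day 4 and 0.482% at day 6, and the change of the difference between these days was called (-3.14 ± 0.10, adjusted p = 5.11e-15). The fusion line held more Six3 than KO even without Dex: no Dex against KO was 2.10 ± 0.07 at day 4 (adjusted p = 2.51e-13) and 2.92 ± 0.07 at day 6 (adjusted p = 1.54e-16), or 4.74-fold and 18-fold in FPKM. Dex against no Dex was 1.88 ± 0.07 at day 4 (adjusted p = 2.62e-13) and 2.03 ± 0.07 at day 6 (adjusted p = 4.01e-14), and these values were not called apart (0.15 ± 0.10, adjusted p = 0.261). Dex against WT changed side, from 0.77 ± 0.07 at day 4 (adjusted p = 3.21e-08) to -1.39 ± 0.07 at day 6 (adjusted p = 2.19e-12), and the change was called (-2.16 ± 0.10, adjusted p = 1.66e-12). Dex libraries held 172% of the WT level at day 4 and 37.6% at day 6, and no Dex libraries 45.7% and 8.67%. Comparisons with WT share the WT libraries and those with KO the KO libraries, so these values stand side by side and are not independent.

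Rax, which defines the eye field, and the reporter row changed side as Six3 did. Rax in Dex was at 239% of WT at day 4 and 46.3% at day 6, and the eGFP row (egfp) at 209% and 69.7%. In no Dex, Rax was at 20.8% and 0.77% of WT, where Six3 was at 45.7% and 8.67%. Those percentages were not tested against each other. Markers of other regions also differed at day 6. The 5 eye field markers outside the family (Rax, Pax6, Lhx2, Otx2 and Vax1) summed to 612 FPKM in WT, 321 in KO, 341 in no Dex and 498 in Dex, with 5, 4, 3 and 4 of 5 at 1 FPKM or more. Its members did not move together: mean levels in WT and KO were 118 and 0.3 FPKM for Rax, 234 and 4.97 for Lhx2 and 44.8 and 1.32 for Vax1, but 105 and 203 for Otx2 and 110 and 112 for Pax6. The 4 pigment cell markers summed to 14.6 FPKM in WT, 1.77 in KO, 1.21 in no Dex and 55.9 in Dex, with Tyr, the defining gene, listed at 0 in all. The 4 head mesenchyme and muscle markers summed to 2.13, 23.2, 19.8 and 16 FPKM in WT, KO, no Dex and Dex. Only 1, 2, 2 and 2 of these 4 reached a mean of 1 FPKM, and Myf5 was listed at 0 in WT. The part of these markers in the Six3 and Six6 differences was not tested.

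**Figure D2:**
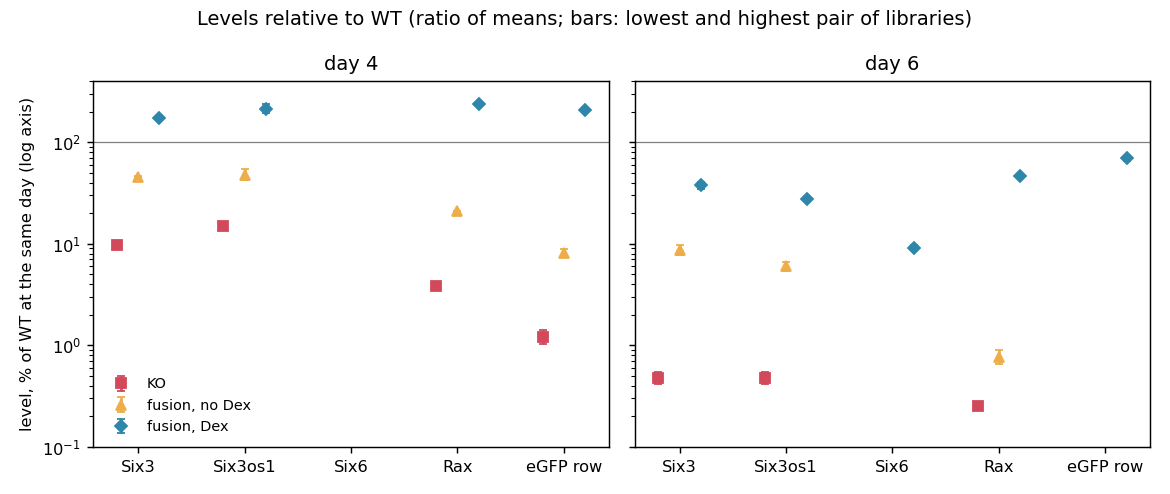
Level as a percentage of WT at the same day (log axis) for Six3, Six3os1, Six6, Rax and the eGFP row at days 4 and 6. Points are ratios of group means, bars run from the lowest to the highest pair of libraries, and groups with a mean under 0.25 FPKM are left out. Dex lies above the WT line at day 4, with Six3 at 172%, and below it at day 6, with Six3 at 37.6% and Six6 at 9.18%.

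The opposite-strand gene Six3os1 had the order of cultures seen for Six3 and came up later. At day 4 it was 7.34 and 6.64 FPKM in WT, 1.04 and 1.03 FPKM in KO, 3.59 and 3.1 FPKM in no Dex, and 14.18 and 15.78 FPKM in Dex. At day 6 Six3os1 was 90.25 and 93.14 FPKM in WT, 0.49 and 0.39 FPKM in KO, 5.98 and 5.05 FPKM in no Dex, and 25.26 and 25.37 FPKM in Dex. In the fusion line Six3os1 rose between these days while Six3 fell: the change of Six3os1 was 0.58 ± 0.08 in no Dex (adjusted p = 1.45e-06) and 0.72 ± 0.08 in Dex (adjusted p = 8.81e-08). It rose with Six3 in WT (3.54 ± 0.08, adjusted p = 3.9e-18) and fell with it in KO (-0.50 ± 0.08, adjusted p = 1.09e-05). As a share of the Six3 level in the same library, Six3os1 was 8.94% to 14.7% at day 4 and 41.4% to 74.2% at day 6, and the 8 libraries of each day did not overlap with those of the other. Gm28528, an antisense gene within Six3, was at most 1.08 FPKM at days 4 and 6.

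Six6 was the latest of the 5 to appear, and it did so in WT and Dex alone. At days 0, 2 and 4 its libraries held 0.01 to 0.33 FPKM. At day 6 Six6 was 70.33 and 69.0 FPKM in WT and 6.66 and 6.13 FPKM in Dex. It was 0.02 and 0.02 FPKM in KO and 0.01 and 0.01 FPKM in no Dex, an estimated 1.3 to 3.5 fragments per library, so no fold is given against those groups. WT and Dex were apart from each other and from every other group. From day 4 to day 6 the change was 5.80 ± 0.06 in WT (adjusted p = 1.51e-23) and 2.66 ± 0.06 in Dex (adjusted p = 1.63e-18). At day 6 KO against WT was -6.11 ± 0.06 (adjusted p = 2.01e-23), Dex against no Dex 2.87 ± 0.06 (adjusted p = 6.24e-18) and Dex against WT -3.26 ± 0.06 (adjusted p = 3.64e-19). Dex libraries held 9.18% of the WT level of Six6, beside 37.6% of that of Six3. KO and no Dex, which differed in Six3 at day 6, were both at or near the level of 3 fragments for Six6.

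Below 1 FPKM, Six6 also differed before day 6. At day 2 it was 0.09 and 0.08 FPKM in WT, 0.24 and 0.32 FPKM in KO, 0.23 and 0.28 FPKM in no Dex, and 0.18 and 0.1 FPKM in Dex. KO was above WT (0.24 ± 0.06, adjusted p = 0.00108), the opposite side from day 6. At day 4 Six6 was 0.33 and 0.21 FPKM in WT and 0.01 and 0.03 FPKM in KO (-0.31 ± 0.06, adjusted p = 6.21e-05), and 0.17 and 0.17 FPKM in Dex. 4930447C04Rik, which overlaps the start of Six6, was present in stem cells, where Six6 was at most 0.1 FPKM: it was 41.3 and 37.6 FPKM in WT and 17.91 and 17.85 FPKM in KO at day 0. At day 6 4930447C04Rik was 22.14 and 21.27 FPKM in WT, 1.26 and 1.11 FPKM in KO, 0.79 and 1.0 FPKM in no Dex, and 4.22 and 3.42 FPKM in Dex, so that it too was low in KO and no Dex (KO against WT -3.38 ± 0.10, adjusted p = 4.06e-16).

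Six5 rose in every culture and ended higher in the other 3 than in WT. In WT it was 3.48 and 3.75 FPKM at day 0 and 16.27 and 16.48 FPKM at day 6, 4.53-fold higher. In KO it went from 2.14 and 2.15 FPKM to 28.42 and 29.05 FPKM, 13.4-fold higher. In no Dex it went from 2.41 and 2.9 FPKM to 20.04 and 20.7 FPKM, and in Dex from 2.92 and 2.55 FPKM to 22.77 and 23.38 FPKM. The 4 cultures were apart at day 6, with KO highest and WT lowest. KO against WT was -0.55 ± 0.07 at day 0 (adjusted p = 2.88e-06), 0.58 ± 0.07 at day 2 (adjusted p = 8.91e-07), 0.43 ± 0.07 at day 4 (adjusted p = 2.97e-05) and 0.78 ± 0.07 at day 6 (adjusted p = 1.05e-08). The side thus changed between days 0 and 2, and the change of this difference from day 0 to day 6 was called (1.33 ± 0.10, adjusted p = 1.27e-09). At day 6 Six5 was lower in no Dex than in KO (-0.48 ± 0.07, adjusted p = 1.4e-05), higher in Dex than in WT (0.47 ± 0.07, adjusted p = 1.07e-05), and Dex against no Dex was not called (0.17 ± 0.07, adjusted p = 0.059). The neighbour Dmpk, which encodes a protein kinase, also rose in WT, from 11.25 and 7.34 FPKM to 37.97 and 38.48 FPKM. At day 6 Dmpk was 37.27 and 38.88 FPKM in KO, where the difference from WT was not called (-0.01 ± 0.15, adjusted p = 0.987).

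Six4 was present in stem cells and fell at day 4 in every culture. In WT it was 4.57 and 4.39 FPKM at day 0, 4.86 and 4.72 FPKM at day 2, 1.97 and 1.74 FPKM at day 4, and 3.04 and 2.58 FPKM at day 6. From day 2 to day 4 Six4 changed by -1.02 in WT, -0.76 in KO, -1.05 in no Dex and -0.47 in Dex (SE 0.06 each), all called. The return at day 6 was called in WT (0.41 ± 0.06, adjusted p = 2.63e-06) and in none of the others (-0.03 in KO, 0.07 in no Dex and -0.04 in Dex). At day 6 Six4 was 1.99 and 2.05 FPKM in KO, 1.85 and 2.1 FPKM in no Dex and 2.13 and 2.04 FPKM in Dex, so these 3 cultures overlapped and lay below WT. KO against WT was -0.33 ± 0.06 (adjusted p = 3.88e-05) and Dex against WT -0.30 ± 0.06 (adjusted p = 0.00013), the second not called in a fit of those groups alone. The fusion line stood apart earlier. At day 0 Six4 was 2.75 and 2.84 FPKM in no Dex and 4.39 and 4.35 FPKM in Dex (0.50 ± 0.06, adjusted p = 8.02e-07). At day 2 the order was turned, with 4.88 and 4.84 FPKM in no Dex and 3.5 and 3.29 FPKM in Dex (-0.42 ± 0.06, adjusted p = 8.22e-06). The median of all genes turned the same way, from 0.04 at day 0 to -0.081 at day 2. Rescaling by median-of-ratios factors moved that median by -0.04 and 0.071, less than the size of the Six4 changes.

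Six2 was low throughout and peaked at day 4. In WT it was 0.28 and 0.14 FPKM at day 0, 0.09 and 0.23 FPKM at day 2, 1.07 and 1.0 FPKM at day 4, and 0.35 and 0.46 FPKM at day 6. The day 4 libraries of Six2 were 1.0 and 1.09 FPKM in KO, 1.0 and 0.87 FPKM in no Dex, and 0.51 and 0.74 FPKM in Dex. Dex thus lay below the other 3 cultures, which overlapped. The step from day 2 to day 4 was called in all 4 cultures (0.81, 0.59, 0.49 and 0.36 in WT, KO, no Dex and Dex, SE 0.09 each). The fall after it was called in each too (-0.54, -0.81, -0.65 and -0.41). Six2 passed the filter on low values through day 4 alone, so these calls are no separate support for the peak. Dex against WT at day 4 was -0.33 ± 0.09 (adjusted p = 0.00698), while the neighbouring Six3 was higher in Dex. At day 6 Six2 was 0.19 and 0.15 FPKM in KO, below WT (-0.26 ± 0.09, adjusted p = 0.0177). This call was lost without WT replicate 2 (-0.21) or KO replicate 2 (-0.24), and the call in Dex at day 4 without Dex replicate 1 (-0.23), in a fit of those groups alone and with a pseudocount of 0.1. The 3 kidney mesenchyme markers Osr1, Wt1 and Hoxd11 summed to at most 0.465 FPKM in any group at days 4 and 6. Earlier their sum was higher, 1.445 to 3.83 FPKM at day 0 and 3.235 to 5.05 FPKM at day 2. In each group of those days 1 of the 3 reached a mean of 1 FPKM.

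**Figure D3:**
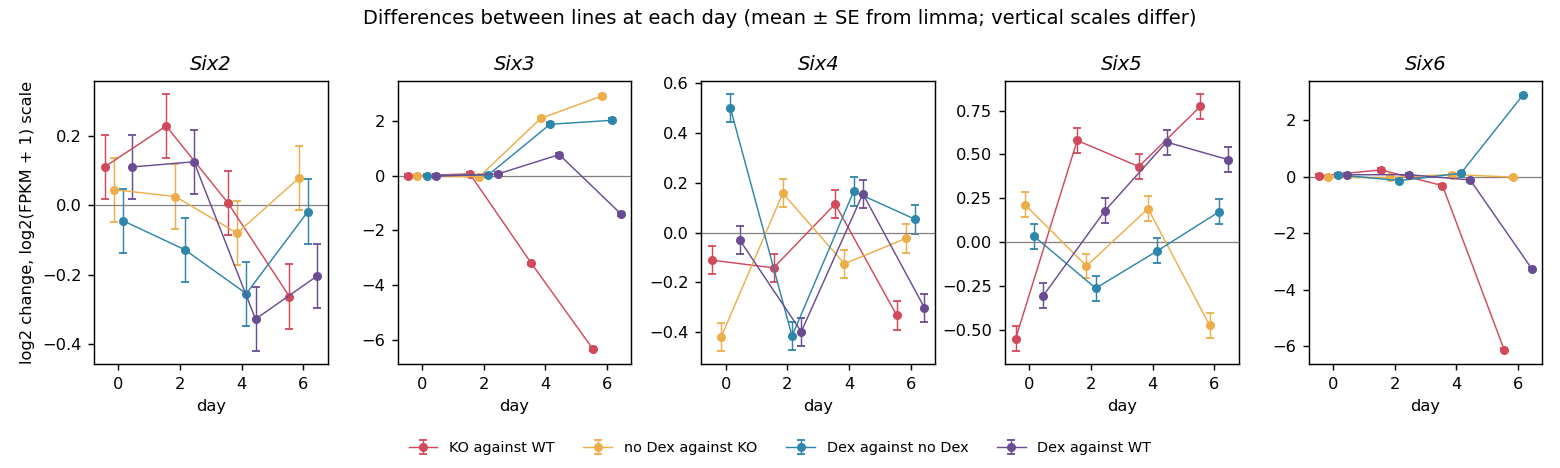
Difference between cultures at each day for the 5 Six-family genes, as limma log2 change with its SE on the log2(FPKM + 1) scale. Colours are KO against WT, no Dex against KO, Dex against no Dex, and Dex against WT, and vertical scales differ between panels. Six3 leaves 0 by day 6 in every comparison, and Six6 in all but no Dex against KO (-0.01 at day 6). Six5 in KO against WT goes from -0.55 at day 0 to 0.78 at day 6. Six4 in Dex against no Dex goes from 0.50 at day 0 to -0.42 at day 2.

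Among the 5 genes, Six3 and Six6 alone had a log2 change of 1 or more between cultures of the same day. Each count of called genes is given beside the share of all tested genes called in the same comparison. For KO set against WT, 1, 4, 3 and 5 of 5 were called at days 0, 2, 4 and 6, beside 48.2%, 58.9%, 60.5% and 65.1% of all genes. At day 6, Six5 was higher and the other 4 were lower in KO. With a log2 change of 1 or more there was Six3 at day 4, beside 5.54% of all genes, and Six3 and Six6 at day 6, beside 10.0%. For no Dex set against KO, 2, 1, 1 and 2 of 5 were called at these days, beside 49.1%, 37.0%, 26.7% and 49.0%, and Six3 changed by 1 or more at day 4, beside 0.233%, and at day 6, beside 2.03%. For Dex set against no Dex, 1, 3, 3 and 2 of 5 were called, beside 43.4%, 44.3%, 40.2% and 42.7%. Six3 changed there by 1 or more at day 4, beside 0.915%, and Six3 and Six6 at day 6, beside 1.52%. For Dex set against WT, 1, 1, 4 and 4 of 5 were called, beside 49.8%, 29.4%, 44.7% and 61.4%, and at day 6 Six3 and Six6 changed by 1 or more, beside 5.9%. For no Dex set against WT, 2, 3, 3 and 4 of 5 were called, beside 62.4%, 46.0%, 51.9% and 62.8%, with a change of 1 or more for Six3 at day 4, beside 2.46%, and for Six3 and Six6 at day 6, beside 7.05%. The median change of the 5 genes in KO at day 6 was -0.333 relative to WT, beside -0.031 over all genes.

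Across the whole course, day 6 differed from day 0 for 5 of 5 genes in WT, 3 in KO, 3 in no Dex and 4 in Dex, beside 78.1%, 80.4%, 81.9% and 80.4% of all genes. Six3 rose from day 0 to day 6 in every culture, by 7.0 in WT, 0.66 in KO, 3.6 in no Dex and 5.62 in Dex. Rescaling the libraries by median-of-ratios factors moved the median of all genes in these day comparisons by -0.105 in WT, -0.098 in KO, -0.175 in no Dex and -0.14 in Dex, less than each of those rises. The change of a difference between days was tested too. For KO and WT it was called for 5 of 5 genes between days 0 and 6 and for 4 between days 4 and 6, beside 56.9% and 48.0% of all genes. For Dex and no Dex it was called for 3 and 1 of 5, beside 48.7% and 41.2%, and for Dex and WT for 4 and 3 of 5, beside 48.4% and 52.0%. The 1 gene called for Dex and no Dex between days 4 and 6 was Six6 (2.75 ± 0.08, adjusted p = 5.94e-15).

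The cofactor genes did not move in 1 direction. Of 12 (Eya1 to Eya4, Dach1, Dach2 and Tle1 to Tle6), 3 rose, 6 fell and 3 were not called in KO relative to WT at day 6, where 65.1% of all genes were called. The counts were 5, 3 and 4 in no Dex relative to KO (49.0% of all genes called), 2, 6 and 4 in Dex relative to no Dex (42.7%), and 3, 6 and 3 in Dex relative to WT (61.4%). Their median changes were -0.149, 0.188, -0.144 and -0.213, beside -0.031, -0.014, 0.009 and -0.023 over all genes. Eya2, a coactivator with phosphatase activity, was 33.54 and 30.92 FPKM in WT, 4.74 and 4.36 FPKM in KO, 6.23 and 5.38 FPKM in no Dex, and 16.33 and 11.49 FPKM in Dex at day 6. The change was -2.58 ± 0.27 in KO relative to WT (adjusted p = 8.45e-08) and 1.12 ± 0.27 in Dex relative to no Dex (adjusted p = 0.00267), and the second call was lost with a pseudocount of 0.1. The cultures lay in the same order for Eya2 as for Six3 at day 6, while the order of duplicates within a culture was not always shared. Dach1, a corepressor, was 7.37 and 7.89 FPKM in WT, 4.35 and 4.08 FPKM in KO, 10.72 and 10.7 FPKM in no Dex, and 12.36 and 11.67 FPKM in Dex. Dach1 was thus above WT in the fusion line and below it in KO (-0.73 ± 0.05, adjusted p = 8.61e-11). Dach2 fell in KO (-1.16 ± 0.07, adjusted p = 2.06e-11) and was lower in Dex than in WT too (-1.38 ± 0.07, adjusted p = 2.74e-12). Tle2, a Groucho corepressor, was 0.44 and 0.88 FPKM in WT and 4.11 and 4.23 FPKM in KO (1.65 ± 0.21, adjusted p = 1.1e-06). Tle5, a short Groucho protein, was 55.16 and 54.39 FPKM in WT and 102.53 and 101.29 FPKM in KO (0.88 ± 0.07, adjusted p = 2.56e-09).

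Among textbook targets, Wnt1 lay in the reverse order of Six3 at day 6 and Wnt8b did not. Six3 is known to repress both of these Wnt genes in the anterior neural plate. Whether Six3 acts on either of them in these cultures was not tested. Wnt1 was 1.6 and 1.36 FPKM in WT, 57.96 and 59.41 FPKM in KO, 37.93 and 40.64 FPKM in no Dex, and 15.12 and 15.1 FPKM in Dex. KO relative to WT was 4.59 ± 0.05 (adjusted p = 5.92e-23) and Dex relative to no Dex -1.32 ± 0.05 (adjusted p = 1.17e-13). At day 4 Wnt1 was 4.25 and 4.19 FPKM in Dex and 0.44 and 0.51 FPKM in WT (1.82 ± 0.05, adjusted p = 8.67e-16), so that Wnt1 and Six3 were both higher in Dex then. Wnt8b at day 6 was 7.96 and 7.7 FPKM in WT, 6.13 and 5.37 FPKM in KO, 70.08 and 73.86 FPKM in no Dex, and 47.13 and 44.0 FPKM in Dex. It was thus highest in the fusion line, and KO was below WT (-0.39 ± 0.07, adjusted p = 5.89e-05), a call lost with a pseudocount of 0.1. Shh, which Six3 activates in the ventral forebrain, did not pass the filter on low values, with at most 0.31 FPKM at days 4 and 6. Cdkn1b, a cell cycle inhibitor that Six6 represses, was 26.49 and 28.45 FPKM in WT, 36.32 and 37.5 FPKM in KO, 30.5 and 29.11 FPKM in no Dex, and 36.22 and 35.39 FPKM in Dex at day 6. KO and Dex were both above WT for Cdkn1b (0.41 ± 0.06, adjusted p = 5.96e-06 and 0.37 ± 0.06, adjusted p = 2.61e-05). No Dex, with Six6 at a mean of 0.01 FPKM, lay between WT and those cultures for Cdkn1b. The part of Six6 in the Cdkn1b levels was not tested.

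**Figure D4:**
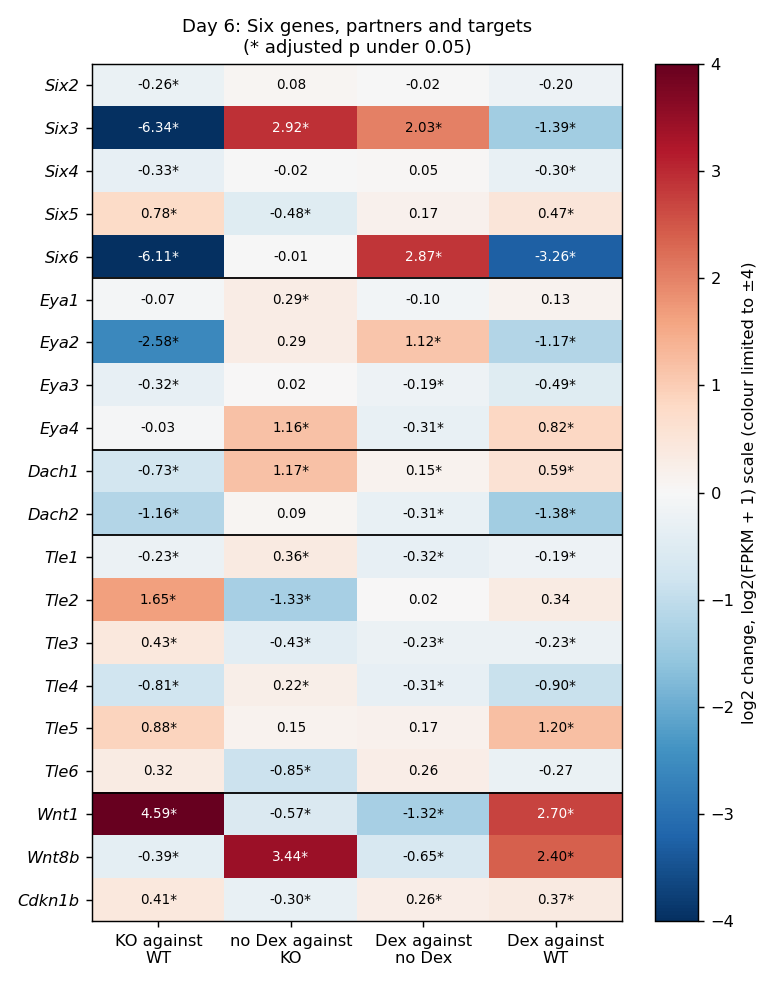
Log2 changes at day 6 in 4 comparisons for the 5 Six-family genes, their cofactors and textbook targets. Colour gives the change, limited to a size of 4, and a star marks an adjusted p under 0.05. Six3, Six6 and Eya2 are lower in KO and higher with Dex, whereas Wnt1 is 4.59 in KO relative to WT and -1.32 in Dex relative to no Dex.

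Of the nearest protein-coding genes that do not overlap a Six-family gene, Mnat1, a cyclin-dependent kinase assembly factor that starts 10.3 kb beyond Six4, changed most in KO at day 6. It was 27.12 and 27.38 FPKM in WT and 14.11 and 14.57 FPKM in KO (-0.88 ± 0.06, adjusted p = 7.2e-11). Camkmt and Srbd1, which start 523 kb and 457 kb from the Six3 and Six2 pair, changed by -0.56 ± 0.06 (adjusted p = 2.11e-07) and -0.28 ± 0.07 (adjusted p = 0.0011). Ppm1a, which starts 182 kb from Six6, changed by 0.17 ± 0.04 (adjusted p = 0.000552). Gm4969, beyond Six5, was at most 0.39 FPKM at days 4 and 6.

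The genes most like each member were sought by Pearson r over the 16 group means of log2(FPKM + 1), among 11575 genes with a group mean of at least 5 FPKM. Closest to Six6 was Vax2, a homeobox gene of the ventral retina (r = 0.995), at 54.32 and 52.91 FPKM in WT, 0.57 and 0.44 FPKM in KO, 0.03 and 0.22 FPKM in no Dex, and 6.87 and 6.23 FPKM in Dex at day 6. Next was Gm26709 (r = 0.994), a non-coding row that begins 908 bp past the end of Six6 on its strand and held 17.01 and 16.4 FPKM in WT. Gm38170 (r = 0.989), among the 5 closest, begins 5996 bp past it. Six6 passed 1 FPKM at day 6 in WT and Dex alone, so its values of r rest mostly on those groups. Closest to Six3 were Irs4, an insulin receptor substrate (r = 0.973), and Fezf1, a forebrain zinc finger gene (r = 0.971). Fezf1 at day 4 was 58.5 and 57.81 FPKM in Dex and 13.25 and 12.62 FPKM in WT, so that it shared the high Dex level of that day. Closest to Six5 was Zfp362 (r = 0.992), then Bmp1, a procollagen protease (r = 0.99). Closest to Six2 was Coch (r = 0.906), and among its 5 was the forebrain and pituitary gene Hesx1 (r = 0.873). Closest to Six4 was Supt20 (r = 0.959). All points share libraries and the same 4 days, so the values of r carry no test.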

How the data were processed

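Polyadenylated RNA of 16 groups of 2 libraries was sequenced in paired ends, per the labels' protocols. The authors deposited 1 table of FPKM with 2 decimals, and per the submitters' processing notes STAR, Cuffdiff and build mm10 were used; versions, annotation release and strand setting were not given in the sources used here. Of its 55492 rows, 21161 were 0 in every library, and 99.4% of IDs matched GENCODE M21.

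Low FPKM values of single-transcript genes fall on steps worth 1 fragment, which gave each library's depth (median 37.4 M). With that depth, 89.8% to 93.9% of low values were within 0.2 of a whole number of fragments. A depth fixed beforehand would give 40.0% by chance. Each depth was picked for the best fit to these same values, so the agreement is no separate check of it. limma 3.58.1 in R 4.3.3 (lmFit, contrasts.fit, eBayes with a trend) was run on log2(FPKM + 1), with 16 group means, 32 libraries and 16 residual degrees of freedom, two-sided, with Benjamini-Hochberg adjustment over 16276 genes at 1 FPKM or more in at least 2 libraries. On simulated data for KO against WT at day 6, with 200 of 16276 genes changed, a mean of 149, 185.6 and 196.8 were called at log2 changes of 0.5, 1 and 2, with 6, 9.8 and 10.4 false calls. There every group started from the WT mean of day 6, with independent normal noise of the spread of these duplicates. In the data 65.1% of genes were called in that comparison, so these counts give no error rate for it.

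Named genes were the 5 members, 12 cofactors, 4 textbook targets, overlapping and neighbouring genes, the 5 genes most alike to each member, and Mettl3, Rax and the eGFP row as checks, with values for at most 6 per list. The members and lists were chosen with earlier results of these data known. Marker genes named beside results come from lists for stem cells, eye field, pigment cell, lens, midbrain, placode, kidney mesenchyme, head mesenchyme and muscle, and endoderm. Of those not described in the report, stem cell markers (6 genes) summed to 1961 to 2187 FPKM at day 0 and 199.5 to 272 FPKM at day 6. At day 6 in WT, KO, no Dex and Dex, lens markers summed to 1.41, 15.5, 9.76 and 13.5 FPKM (mostly Foxe3 outside WT, while Pitx3 went from 1.04 FPKM in WT down to 0.03 in KO, and Cryaa stayed near 0), midbrain markers to 2.94, 2.94, 1.79 and 0.775 FPKM, and endoderm markers to 39.8, 0.675, 0.63 and 4.65 FPKM. Placode markers summed to 33.1, 4.75, 6.02 and 15.7 FPKM in the same order. Most of each placode sum was Eya2, with means of 32.23, 4.55, 5.805 and 13.91 FPKM, so it is no result apart from Eya2. Some genes, among them another of the family, are not reported here. Alternatives were a pseudocount of 0.1, no filter, median-of-ratios rescaling, a separate fit for each pair of groups, a block for the replicate number, and leaving out each library. Duplicate differences of 2 groups correlated across genes at -0.088 to 0.125 over 120 pairs of groups. These values show no strong pairing by replicate number and cannot exclude a weak one.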

Additional observations from a re-analysis of the deposited data

Results flagged for a closer look

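For each of the 5 genes the difference between cultures changed with the day, as the limma test of that change found at an adjusted p under 0.05. For Six3, the KO minus WT log2 difference at day 6 exceeded that at day 0 by -6.34 and that at day 4 by -3.14. The Dex minus no Dex difference of Six3 grew by 2.02 from day 0 to day 6, and Dex minus WT moved by -1.38 from day 0 and by -2.16 from day 4. For Six6, KO minus WT moved by -6.14 from day 0 and -5.8 from day 4 to day 6, Dex minus no Dex by 2.8 and 2.75, and Dex minus WT by -3.32 and -3.14. For Six5, KO minus WT moved by 1.33 from day 0 and 0.34 from day 4, and Dex minus WT by 0.78 from day 0. For Six4, KO minus WT moved by -0.22 from day 0 and -0.45 from day 4, Dex minus no Dex by -0.45 from day 0, and Dex minus WT by -0.27 from day 0 and -0.46 from day 4. For Six2, KO minus WT moved by -0.37 from day 0. These comparisons share libraries, and 41.2% to 56.9% of all tested genes were called in the same tests. With 2 libraries in a group, outlying libraries could not be tested for.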

How the results depend on the processing

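Of 96 differences of single genes given in the report or above, 96 kept direction and call with no filter on low values, 95 with median-of-ratios rescaling, 93 with a pseudocount of 0.1 and 90 in fits of the compared groups alone. The exception under rescaling was the Dmpk log2 change, KO against WT, day 6, not called in either, which turned to 0.0131 (-0.0355 to 0.0239 without 1 library). Of all 59 reversals on leaving out a library, also among values not printed, 0 were of called differences. Among the values lost without 1 library were those of Six2 in KO and Dex and the changes of Six2 and Six4 differences from day 0 to day 6.

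Counts of the 5 genes called that differed from the reported count by more than 1.5 times are given next, and the cause was not tested. A further 46 counts differed by 1 within that limit, among them 4 of 5 for KO against WT at day 6 without WT or KO replicate 2, and 3 for Dex against WT at day 6 in a fit of those groups alone. In fits of the compared groups alone they were, at day 0, 1 for no Dex against KO, 0 for Dex against WT and 1 for no Dex against WT. At day 2 they were 2 for KO against WT, 0 for no Dex against KO and 1 for Dex against no Dex, and at day 4 they were 1 for Dex against no Dex and 2 for Dex against WT. For the change of Dex against no Dex from day 4 to day 6 the count was 2. With no filter, day 2 gave 2 for KO against WT and 0 for no Dex against KO, which was also 0 with the pseudocount of 0.1. Rescaling gave 2 for Dex against WT at day 2 and 2 for no Dex against KO at day 4. Without 1 library, the count was 1 to 2 for no Dex against KO at day 0 (1 without either KO library or no Dex replicate 2), and at day 2 it was 2 to 3 for KO against WT, below the 4 with all libraries (2 without WT or KO replicate 1). It was 0 to 1 for no Dex against KO at day 2 (0 without KO replicate 1 or either no Dex library) and 1 to 3 for Dex against no Dex (1 without no Dex replicate 1 or Dex replicate 2). It was 1 to 2 for Dex against no Dex at day 4 (1 without no Dex replicate 2), and 3 to 5 for the change of KO against WT from day 0 to day 6 (3 without WT day 0 replicate 2). The lone library left in such a group was assumed to vary like the other groups.

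With the replicate number as a block, 5 of 5 genes were still called in KO against WT at day 6, 29 of 30 counts were equal and 96 of 96 printed differences kept their call. The other count, Dex against no Dex at day 2, went from 3 to 2. For genes most alike, a pseudocount of 0.1 put Fezf1 first for Six3, with Irs4 at rank 5 and Glmn at rank 9, and Gm26709 first for Six6, with Vax2 at rank 3 (r = 0.962) and Kcnip1 at rank 7. Dlx5 went from rank 5 to rank 14 for Six2 and Adam19 from rank 5 to rank 11 for Six4, while Coch, Supt20 and Zfp362 stayed first. Six6 in KO and no Dex at day 6 lies at the level of a few fragments, so that depth limits what can be said of its folds.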
